A study of Bos taurus with 24 samples.

Results

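Solute carriers are the genes whose symbol starts with SLC and a family number. Of 271 rows with such a symbol in a table of 17071 rows, 90 were chosen by their level, a mean of at least 10 RPM over 24 single bovine oocytes, and these 90 are described here by family and role. Every library came from a single oocyte at metaphase II and was made by CEL-seq2, in which the cDNA is primed at the poly(A) tail and each molecule carries a unique molecular identifier (UMI). The comparison asks which transcript levels differ after an oocyte has been injected. The 12 siRNA injected oocytes had received a non-specific (scrambled) siRNA with Dextran-TRITC, a fluorescent tracer, at the germinal vesicle stage, and the 12 non-injected oocytes (genotype label wild type) had been cultured alike without injection. All 24 came from slaughterhouse ovaries, had been stripped of their cumulus cells, and spent 16 h in roscovitine, a kinase inhibitor that delays meiosis, followed by 22 h in maturation medium. No oocyte was injected with carrier alone, so the siRNA, the tracer and the needle cannot be told apart, and the sources used here do not give the cow each oocyte came from. The p-values below therefore measure the spread between these oocytes only.

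Solute carriers are membrane proteins that move amino acids, sugars, nucleotides, ions and metals across the plasma membrane and the membranes of organelles, mostly by exchange or by cotransport with an ion. The SLC25 family sits in the inner mitochondrial membrane, with a few exceptions, and the SLC35 family in the endoplasmic reticulum and Golgi. A growing oocyte receives part of its nutrients from cumulus cells through gap junctions and carries its own transporters for the rest, and after the germinal vesicle breaks down it makes almost no new mRNA, so its transcripts are a maternal store.

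The unit is RPM, reads of a gene, counted once per UMI, scaled to the same total in each oocyte. The molecule is tagged at its 3' end, so RPM is not divided by gene length, and levels of different genes are compared here on the RPM scale as shares of tagged molecules. Because the share depends on priming from the poly(A) tail, fewer molecules and shorter tails cannot be told apart. The values came out as whole UMI counts once a correction inferred from them was undone, 204285 to 382077 per injected oocyte (median 274983) and 134080 to 415554 per non-injected oocyte (median 288778). In these, 1 UMI was worth 2.47 to 4.77 RPM in injected, against 2.27 to 7.35 RPM in non-injected oocytes, so a gene near 10 RPM rests on a few molecules per oocyte. The 90 genes held 1007 to 2430 UMIs per injected and 862 to 2650 UMIs per non-injected oocyte. Of 16 oocyte marker genes with a row, all 16 had a mean over 10 RPM (summed level 10522 to 12444 RPM in injected, against 10351 to 12520 RPM in non-injected oocytes). Of 18 cumulus and granulosa cell markers, 8 had a mean over 10 RPM, INHBA (39.9 RPM), GJA1 (31.5 RPM), PTGS2 (25.5 RPM), KRT8 (18.1 RPM), CYP19A1 (15.8 RPM) and CD44 (10.2 RPM) besides STAR and HAS2. Another 7 had a mean under 1 RPM, among them FSHR (0.0946 RPM), AMH (0.255 RPM) and CYP11A1 (0.113 RPM). The summed level of the 18 was 395 to 662 RPM in injected, against 411 to 585 RPM in non-injected oocytes, most of it from STAR (262 RPM) and HAS2 (86.4 RPM). Of 3 blood and endothelium markers, CD3E had a mean of 7.99 RPM and was above 0 in 19 of 24 oocytes, CD68 had 0.287 RPM and PTPRC was at 0, and the sum, nearly all of it CD3E, was 0 to 16.9 RPM in injected, against 0 to 29.4 RPM in non-injected oocytes.

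The 90 genes together took 0.550% of the RPM, a share of the tagged molecules and not of all RNA. Their sum was 4728 to 6118 RPM in injected oocytes (5421 ± 485) and 4609 to 6564 RPM in non-injected oocytes (5577 ± 614). Here and below a value after ± is the SD over the 12 oocytes of a group, unless marked as an SE. The median gene had 36.9 RPM, against 46.6 RPM over the 7256 rows that met the same minimum. Levels spanned 53.9-fold between the highest and the lowest of the 90, with 12 genes at 100 RPM or more, 43 between 30 and 100 RPM and 35 between 10 and 30 RPM. The 3 highest genes made up 25.0% and the 10 highest 44.5% of the sum, so a few genes supplied a large share of the solute carrier RPM. The level chose the genes and is a description. A total of 73 genes were above 0 in all 24 oocytes, and the least often detected, SLC35B1, was above 0 in 20. Just inside the minimum were SLC39A7 (11.5 RPM), SLC6A20 (10.8 RPM) and SLC51B (10.8 RPM), and just outside it SLC19A3 (9.99 RPM), SLC30A3 (9.35 RPM) and SLC38A11 (9.33 RPM). The genes came from 36 of the 47 SLC families with a row. By symbol, 2 of them are not transporters: SLC9A3R1 encodes the scaffold protein NHERF1 and SLC7A6OS is named for lying on the strand opposite SLC7A6, whose reads cannot be told from its own if counting ignored strand.

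**Figure D1:**
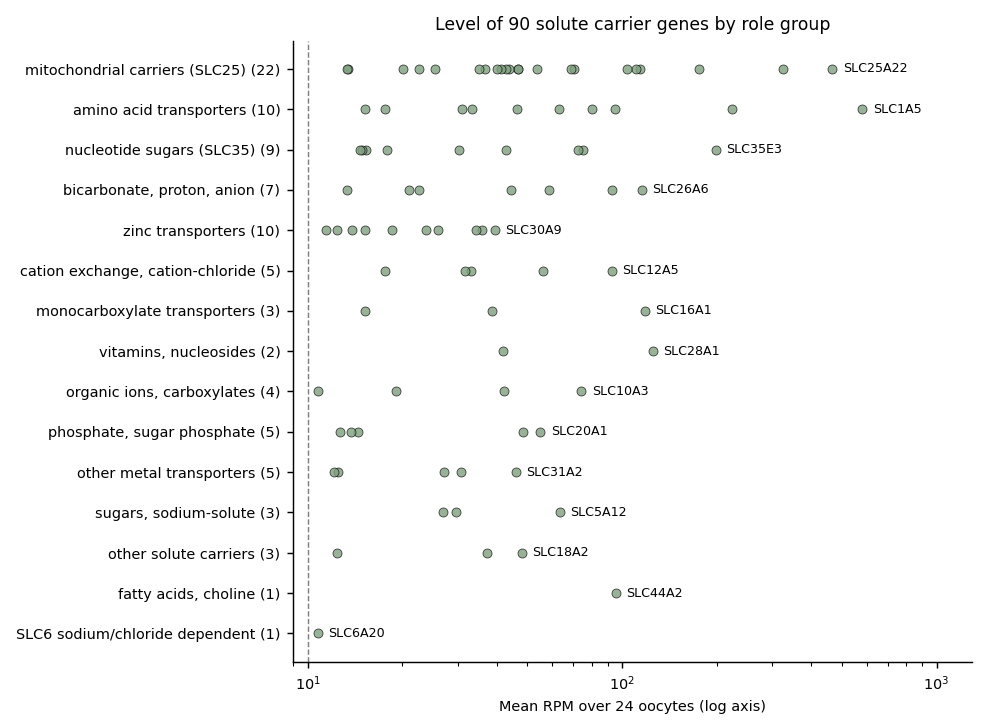
Mean RPM over 24 oocytes (log axis) of each of the 90 genes, 1 point per gene, in 15 role groups with the number of genes in parentheses; the dashed line marks the minimum of 10 RPM and the highest gene of each group is named. The mitochondrial and amino acid groups reach furthest to the right, with SLC25A22 at 466 RPM and SLC1A5 at 579.9 RPM.

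No solute carrier gene differed between siRNA injected and non-injected oocytes past the threshold of the main test. Groups were compared gene by gene with limma on log2(RPM + 5), fitted over the 7256 rows of at least 10 RPM. A gene counted as called at a p under 0.05 after Benjamini-Hochberg adjustment over these rows and a fold change over 1.2. Adding 5 RPM makes the fold change of low genes look smaller than it is. Of the 90 genes 0 were called, where 16 of 7256 rows (0.221%) were, 0.0827% of rows higher and 0.138% lower in injected oocytes. The lowest adjusted p was 0.0830, for SLC25A31. At an unadjusted p under 0.05 there were 9 genes (10%), 3 higher (SLC8B1, SLC6A20 and SLC41A2) and 6 lower (SLC25A31, SLC35A3, SLC25A35, SLC25A39, SLC35B1 and SLC25A26), against 12.4% of all rows (6.73% higher and 5.72% lower), so their share was near the background. Of the higher genes, SLC6A20 and SLC41A2 had non-injected means of 6.94 and 9.87 RPM. Both met the minimum of 10 RPM only through the injected oocytes, so the choice by level favoured their positive sign. Of the 90 fitted differences 38 were positive and 52 negative, while 53.1% of all rows were positive (36 and 54 of the 90 after TMM scaling). The median log2 fold change was -0.05 for the 90 genes and 0.02 for all rows. The values of the groups overlapped in all 90 genes, as in all 7256 rows. The 95% interval lay within a 1.5-fold change of RPM + 5 either way for 32 genes and within a 2-fold change for 80. A larger difference on that scale lay outside the interval in these genes. For those of low level, the interval does not bound the fold change of RPM itself as tightly.

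Amino acid transporters held the highest gene of all. SLC1A5 (ENSBTAG00000013577), the sodium-dependent exchanger ASCT2 that carries glutamine and other neutral amino acids, had 422 to 767 RPM (median 558) in siRNA injected oocytes and 352 to 956 RPM (median 573) in non-injected oocytes. The 12 injected values lay within the range of the non-injected ones. Its relative SLC1A4 (ASCT1, for alanine, serine and cysteine) had 88.8 ± 20.9 RPM in siRNA injected, against 101 ± 27.2 RPM in non-injected oocytes. SLC3A2 is the heavy chain CD98, which carries no solute itself and holds light chains of the SLC7 family in the plasma membrane. It had 119.5 to 300.5 RPM (median 239.5) in siRNA injected oocytes and 156 to 302 RPM (median 218) in non-injected oocytes, with almost the same mean in both groups (limma log2 fold change 0.01 ± 0.13 SE, adjusted p = 0.990). Of its light chains, SLC7A7 and SLC7A6, which exchange cationic for neutral amino acids, had means of 46.4 and 31.0 RPM, while SLC7A5, the light chain LAT1 for large neutral amino acids, had only 0.473 RPM. SLC43A2 (LAT4), a facilitator for branched-chain amino acids and phenylalanine, had 46.9 to 114 RPM (median 89.4) in siRNA injected oocytes and 30.03 to 96.5 RPM (median 77.5) in non-injected oocytes, and 9 injected oocytes of 12 were over the non-injected median (limma log2 fold change 0.33 ± 0.18 SE, adjusted p = 0.452). SLC7A3, a carrier of arginine and lysine, was the most uneven of this group. It had 10.7 to 206 RPM (median 66.4) in siRNA injected oocytes and 0 to 96.7 RPM (median 45.1) in non-injected oocytes, and its interval on the log2 scale ran from -0.14 to 1.35 (limma log2 fold change 0.61 ± 0.37 SE, adjusted p = 0.518). Together the 10 genes of this group, of 32 rows in these families, summed to 1185 ± 149 RPM in injected, against 1185 ± 207 RPM in non-injected oocytes (n = 12 each), 21.6% of all solute carrier RPM. The count and the sum include SLC7A6OS, which was grouped by its symbol and is not a transporter. Lower in the list, SLC38A8 and SLC38A6 of the sodium-coupled neutral amino acid family had means of 17.6 and 15.2 RPM, and SLC7A6OS 33.5 RPM. Some carriers known from oocytes or embryos of other mammals were under the minimum: the glycine transporter SLC6A9 had 1.85 RPM, SLC38A2 0.0946 RPM and the glutamate transporter SLC1A1 8.90 RPM (these 3, with SLC7A5 above and SLC2A1 below, were picked after their values were seen).

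Mitochondrial carriers were the largest group. The SLC25 family gave 22 of the 90 genes, of 35 rows, and 34.9% of the solute carrier RPM, with sums of 1860 ± 244 RPM in injected, against 1976 ± 259 RPM in non-injected oocytes. SLC25A22, which brings glutamate into the matrix, had 239.8 to 614 RPM (median 442) in siRNA injected oocytes and 397 to 633 RPM (median 471) in non-injected oocytes. In 9 of 12 injected oocytes it was below the non-injected median, and the ranges overlapped over most of their length (limma log2 fold change -0.20 ± 0.12 SE, adjusted p = 0.511). SLC25A44, a carrier of branched-chain amino acids, had 185 ± 24.9 RPM in siRNA injected, against 167 ± 25.8 RPM in non-injected oocytes. SLC25A20, the carnitine and acylcarnitine carrier that feeds fatty acid oxidation, had 68.9 ± 13.6 RPM in siRNA injected, against 72.2 ± 22.0 RPM in non-injected oocytes. The aspartate and glutamate carriers SLC25A13 and SLC25A12, parts of the malate-aspartate shuttle, had means of 53.8 and 36.6 RPM, and SLC25A11, which exchanges oxoglutarate for malate in the same shuttle, had 35.0 RPM. SLC25A17 is an exception in the family, a peroxisomal carrier of coenzyme A and related cofactors. It had 35.7 to 263 RPM (median 87.0) in siRNA injected oocytes and 39.9 to 214 RPM (median 114) in non-injected oocytes, a wide spread in both groups. Another 8 genes of the family had means of 13.4 to 46.8 RPM and log2 fold changes of -0.38 to 0.44. They carry pyrimidine nucleotides (SLC25A33), glycine (SLC25A38), ATP with magnesium in exchange for phosphate (SLC25A24), ornithine (SLC25A2) and citrate (SLC25A1), or are relatives of the uncoupling proteins (SLC25A14 and SLC25A30) or an orphan (SLC25A34).

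The 4 ADP/ATP carriers, which pass ATP made in the matrix to the cytosol in exchange for ADP, stood at different levels. SLC25A6 (ANT3) had 201 to 452 RPM (median 376) in siRNA injected oocytes and 189 to 435 RPM (median 309.6) in non-injected oocytes, and 9 of 12 injected oocytes exceeded the non-injected median (limma log2 fold change 0.24 ± 0.15 SE, adjusted p = 0.536). SLC25A5 (ANT2) had 95.2 ± 34.2 RPM in siRNA injected, against 112 ± 34.7 RPM in non-injected oocytes (limma log2 fold change -0.25 ± 0.18 SE, adjusted p = 0.624), and SLC25A4 (ANT1), the form of heart and muscle, 46.5 ± 22.1 RPM in siRNA injected, against 41.2 ± 11.3 RPM in non-injected oocytes (limma log2 fold change 0.08 ± 0.21 SE, adjusted p = 0.921). SLC25A31 (ENSBTAG00000012826), the germ cell form ANT4 known from mouse testis, had 70.5 to 145 RPM (median 87.9) in the 12 injected oocytes, against 84.8 to 186 RPM (median 139) in the 12 non-injected oocytes. Of the injected oocytes 11 were below the non-injected median and 1 was above it, and the groups overlapped between 84.8 and 145 RPM. Its log2 fold change was -0.53 ± 0.15 (SE; 95% interval -0.83 to -0.24), the smallest p of the 90 genes (0.000757), with an adjusted p of 0.0830 by limma. The summed level of the 4 carriers was 586.8 ± 118 RPM in injected, against 588.7 ± 114 RPM in non-injected oocytes. As a share of that sum, SLC25A31 took 12.2 to 21.1% in injected oocytes (15.9% ± 2.90, SD) and 17.7 to 29.6% in non-injected oocytes (23.2% ± 3.77, SD), and SLC25A6 60.0% ± 8.62 in injected, against 50.6% ± 7.62 in non-injected oocytes. These shares were worked out after the values of SLC25A31 had been seen and were not tested. The proteins of this set are much alike, and how reads that match more than 1 of their transcripts were counted is not stated in the methods or the labels, so their split is uncertain.

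**Figure D2:**
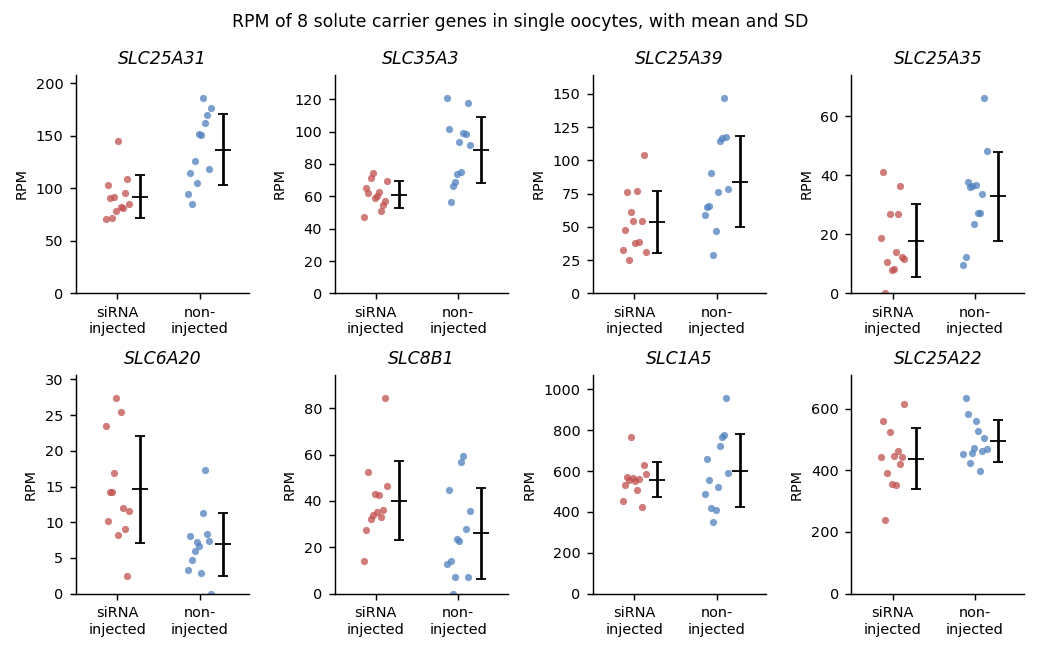
RPM of 8 genes in each of 12 siRNA injected (left, red) and 12 non-injected oocytes (right, blue), 1 point per oocyte with the mean and SD in black and each vertical axis starting at 0. The top row has the genes with the smallest p among those lower in injected oocytes, SLC25A31, SLC35A3, SLC25A39 and SLC25A35; in all 8 the groups overlap.

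Among the other mitochondrial carriers, 3 were lower in injected oocytes at an unadjusted p under 0.05. SLC25A39, which carries glutathione into mitochondria, had 25.0 to 104 RPM (median 51.2) in the 12 injected oocytes, against 29.0 to 147 RPM (median 77.7) in the 12 non-injected oocytes. Here 11 injected oocytes of 12 were under the non-injected median (limma log2 fold change -0.60 ± 0.22 SE, adjusted p = 0.234). SLC25A35, whose substrate is not established, had 0 to 41.0 RPM (median 13.2) in the 12 injected oocytes, against 9.75 to 66.2 RPM (median 34.9) in the 12 non-injected oocytes, and it was at 0 in 1 injected oocyte (limma log2 fold change -0.83 ± 0.29 SE, adjusted p = 0.202). SLC25A26, the carrier of the methyl donor S-adenosylmethionine, had 18.1 to 65.2 RPM (median 35.6) in siRNA injected oocytes and 36.0 to 86.7 RPM (median 49.8) in non-injected oocytes, with 9 injected oocytes of 12 under the non-injected median (limma log2 fold change -0.39 ± 0.19 SE, adjusted p = 0.395). None of these passed the adjusted threshold. In the family as a whole 6 fitted differences were positive and 16 negative, with a median log2 fold change of -0.07.

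Nucleotide sugar transporters bring activated sugars into the Golgi and endoplasmic reticulum for glycosylation, on which the zona pellucida and surface proteins of an oocyte depend. SLC35E3, an orphan member, was the highest, with 94.2 to 357 RPM (median 187) in siRNA injected oocytes and 135 to 269.8 RPM (median 205) in non-injected oocytes. SLC35A3 (ENSBTAG00000012454), a transporter of UDP-N-acetylglucosamine, had 47.0 to 74.4 RPM (median 61.0) in the 12 injected oocytes, against 56.5 to 121 RPM (median 92.6) in the 12 non-injected oocytes. All 12 injected oocytes were below the non-injected median, and the ranges overlapped between 56.5 and 74.4 RPM. The log2 fold change was -0.48 ± 0.15 (SE; 95% interval -0.78 to -0.19) with a limma adjusted p of 0.123. SLC35A1, for CMP-sialic acid, had 71.3 ± 26.0 RPM in siRNA injected, against 73.8 ± 21.7 RPM in non-injected oocytes. SLC35A2, for UDP-galactose, had 29.9 ± 13.7 RPM in siRNA injected, against 30.8 ± 7.59 RPM in non-injected oocytes. SLC35A5, an orphan member, had 15.0 to 61.9 RPM (median 37.7) in siRNA injected oocytes and 9.40 to 80.96 RPM (median 62.4) in non-injected oocytes. It too was below the non-injected median in all 12 injected oocytes, but the difference did not pass the threshold (limma log2 fold change -0.33 ± 0.25 SE, adjusted p = 0.634). SLC35B1, which exchanges ATP and ADP across the membrane of the endoplasmic reticulum, had 0 to 28.3 RPM (median 10.9) in siRNA injected oocytes and 7.24 to 31.1 RPM (median 15.2) in non-injected oocytes (limma log2 fold change -0.71 ± 0.33 SE, adjusted p = 0.362). The 9 genes summed to 453 ± 76.8 RPM in injected, against 511 ± 80.2 RPM in non-injected oocytes, with 2 positive and 7 negative fitted differences. The 3 not yet named had means of 14.9 to 17.9 RPM, among them SLC35B2, which carries the sulphate donor PAPS, and SLC35D1, which carries UDP-glucuronic acid, both with positive log2 fold changes (0.35 and 0.34), while SLC35A4 had -0.46.

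The ion transporters that set pH, volume and calcium were of middling level. SLC26A6, an exchanger of chloride, bicarbonate and oxalate, had 47.0 to 162 RPM (median 109) in siRNA injected oocytes and 78.1 to 167 RPM (median 121) in non-injected oocytes (limma log2 fold change -0.21 ± 0.16 SE, adjusted p = 0.638). SLC9A3R1, the scaffold NHERF1 that anchors exchangers to the cytoskeleton, had 89.0 ± 23.8 RPM in siRNA injected, against 97.4 ± 26.4 RPM in non-injected oocytes. The sodium-bicarbonate cotransporter SLC4A7 had 51.3 ± 9.57 RPM in siRNA injected, against 65.7 ± 20.1 RPM in non-injected oocytes. The bicarbonate transporters SLC4A4 and SLC4A2 and the exchanger SLC9B1 were lower, with means of 13.3 to 22.6 RPM. The log2 fold change was 0.33 for SLC4A4, -0.07 for SLC4A2 and -0.05 for SLC9B1, and no gene named here reached an unadjusted p under 0.05.

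The cotransporters and exchangers of SLC8, SLC12 and SLC24 summed to 247 ± 44.2 RPM in injected, against 214 ± 46.6 RPM in non-injected oocytes. SLC12A5 (KCC2), which exports potassium with chloride, had 98.9 ± 37.1 RPM in siRNA injected, against 86.3 ± 31.3 RPM in non-injected oocytes. SLC12A2 (NKCC1), which imports sodium, potassium and chloride, had 54.9 ± 20.01 RPM in siRNA injected, against 57.2 ± 18.3 RPM in non-injected oocytes. SLC8B1, the mitochondrial sodium-calcium exchanger that lets calcium out of the matrix, had 14.1 to 84.3 RPM (median 35.9) in the 12 injected oocytes, against 0 to 59.3 RPM (median 23.0) in the 12 non-injected oocytes. In 11 of 12 injected oocytes it was above the non-injected median, and its fold change was the highest of the 90 genes by limma on log2(RPM + 5) (limma log2 fold change 0.77 ± 0.31 SE, adjusted p = 0.279). By DESeq2 and edgeR its log2 fold change was 0.52 and 0.49, under the 0.99 and 0.93 of SLC6A20. The level of SLC8B1 also went with depth (r = 0.73 with the number of genes detected in an oocyte and 0.68 with log2 UMIs), and its value of 0 RPM was in non-injected oocyte 4, 1 of the 2 with the fewest UMIs. Without that oocyte the limma log2 fold change was 0.56 (adjusted p = 0.413), and with the number of detected genes as a covariate it was 0.66 (adjusted p = 0.210). SLC8A1, the sodium-calcium exchanger of the plasma membrane, had 17.8 to 79.5 RPM (median 36.9) in siRNA injected oocytes and 6.002 to 40.6 RPM (median 25.4) in non-injected oocytes (limma log2 fold change 0.47 ± 0.23 SE, adjusted p = 0.410). SLC24A1, an exchanger of sodium for calcium and potassium, had a mean of 17.6 RPM. Both members of SLC8 had a positive difference, and neither passed the adjusted threshold.

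Zinc transporters were numerous and low. Zinc accumulates in a maturing mammalian oocyte and is released at fertilisation, and ZIP proteins (SLC39) bring it into the cytosol while ZnT proteins (SLC30) move it out or into vesicles. The 10 genes, of 19 rows, summed to 232 ± 24.2 RPM in injected, against 231 ± 29.5 RPM in non-injected oocytes. The highest were SLC30A9, with 45.5 ± 25.1 RPM in siRNA injected, against 33.3 ± 14.8 RPM in non-injected oocytes, and SLC39A1, with 36.4 ± 14.2 RPM in siRNA injected, against 35.5 ± 11.7 RPM in non-injected oocytes. SLC39A10 and SLC39A6, the pair of importers known from mouse oocytes, had means of 23.9 and 12.4 RPM. The other 6, the importers SLC39A7, SLC39A12, SLC39A13 and SLC39A14 and the exporters SLC30A5 and SLC30A7, had means of 11.5 to 34.3 RPM. No zinc transporter reached an unadjusted p under 0.05.

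For other metals, SLC31A2, a relative of the copper importer, had 48.5 ± 14.7 RPM in siRNA injected, against 43.3 ± 15.6 RPM in non-injected oocytes, and the copper importer SLC31A1 (CTR1) 31.4 ± 10.2 RPM in siRNA injected, against 30.2 ± 14.8 RPM in non-injected oocytes. SLC40A1 (ferroportin), the exporter of iron, had 15.4 to 46.4 RPM (median 30.1) in siRNA injected oocytes and 4.70 to 52.4 RPM (median 19.5) in non-injected oocytes, with 10 injected oocytes of 12 over the non-injected median (limma log2 fold change 0.51 ± 0.25 SE, adjusted p = 0.410). SLC41A2, a magnesium transporter, had 7.81 to 25.5 RPM (median 13.6) in siRNA injected oocytes and 0 to 24.7 RPM (median 10.5) in non-injected oocytes (limma log2 fold change 0.51 ± 0.25 SE, adjusted p = 0.399). All 5 genes of SLC11, SLC31, SLC40 and SLC41 had a positive fitted difference, with sums of 141 ± 31.5 RPM in injected, against 116 ± 27.6 RPM in non-injected oocytes. The fifth gene, SLC11A1, an endosomal carrier of divalent metals, had a mean of 12.1 RPM. SLC11A1 and SLC41A2 had non-injected means of 9.54 and 9.87 RPM and met the minimum of 10 RPM only through the injected oocytes. The choice by level thus favoured a positive sign for both, and the count of signs was not tested. SLC41A2 reached an unadjusted p under 0.05 and the other 4 did not.

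Carriers of fuel molecules and nucleosides were few. SLC16A1 (MCT1), which moves lactate and pyruvate with protons, had 74.4 to 132 RPM (median 121) in siRNA injected oocytes and 65.9 to 193 RPM (median 124) in non-injected oocytes, and SLC16A11 of the same family had 36.8 ± 27.3 RPM in siRNA injected, against 40.6 ± 13.9 RPM in non-injected oocytes. SLC16A13, the last of the family over the minimum, had a mean of 15.2 RPM. Pyruvate is the main fuel of a mammalian oocyte. Among sugar and sodium-solute transporters, SLC5A12, a sodium-coupled lactate carrier, had 70.4 ± 19.0 RPM in siRNA injected, against 56.2 ± 19.4 RPM in non-injected oocytes. SLC45A4, a relative of the sucrose transporters, had 32.1 ± 16.4 RPM in siRNA injected, against 27.3 ± 12.7 RPM in non-injected oocytes. The intracellular glucose transporter SLC2A8 (GLUT8) had 28.2 ± 19.97 RPM in siRNA injected, against 25.5 ± 13.3 RPM in non-injected oocytes. SLC2A1 (GLUT1), the glucose transporter of many cell types, had 7.36 RPM and was under the minimum. SLC28A1, a concentrative transporter of pyrimidine nucleosides, had 56.4 to 200.3 RPM (median 110.3) in siRNA injected oocytes and 82.3 to 175 RPM (median 129.6) in non-injected oocytes, and SLC29A1 (ENT1), an equilibrative one, 43.7 ± 14.0 RPM in siRNA injected, against 40.1 ± 15.8 RPM in non-injected oocytes. None of these reached an unadjusted p under 0.05.

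In the remaining groups, SLC44A2, a choline transporter-like protein, had 87.9 ± 36.1 RPM in siRNA injected, against 103 ± 39.1 RPM in non-injected oocytes. SLC10A3 and SLC10A4, relatives of the bile acid transporters, had means of 74.3 and 42.3 RPM, and the phosphate importer SLC20A1 (PiT-1) and SLC37A3, of the sugar phosphate exchanger family, 54.9 and 48.4 RPM. SLC18A2, which loads monoamines into vesicles, and SLC48A1, which moves heme, had 48.0 and 37.1 RPM. Lower still were the carnitine importer SLC22A5 (19.2 RPM), the vesicular glutamate transporter SLC17A7 (14.5 RPM), SLC17A1 (13.8 RPM), the phosphate importer SLC20A2 (12.7 RPM), the peptide transporter SLC15A1 (12.4 RPM) and SLC51B (10.8 RPM), the beta subunit of an organic solute transporter. Log2 fold changes of these 6 were -0.41 to 0.41, and none reached an unadjusted p under 0.05. The signs counted by group above were the same after TMM and size factor scaling. SLC6A20, a transporter of proline and related imino acids, was the only gene of the 14 rows of SLC6 to meet the minimum. It had 2.47 to 27.4 RPM (median 13.1) in the 12 injected oocytes, against 0 to 17.3 RPM (median 6.97) in the 12 non-injected oocytes, and 11 of 12 injected oocytes exceeded the non-injected median (limma log2 fold change 0.70 ± 0.26 SE, adjusted p = 0.233). With means of 14.6 RPM in injected, against 6.94 RPM in non-injected oocytes, it met the minimum only through the injected group. The creatine transporter SLC6A8, which the study names, matched no row by symbol and is not reported here.

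**Figure D3:**
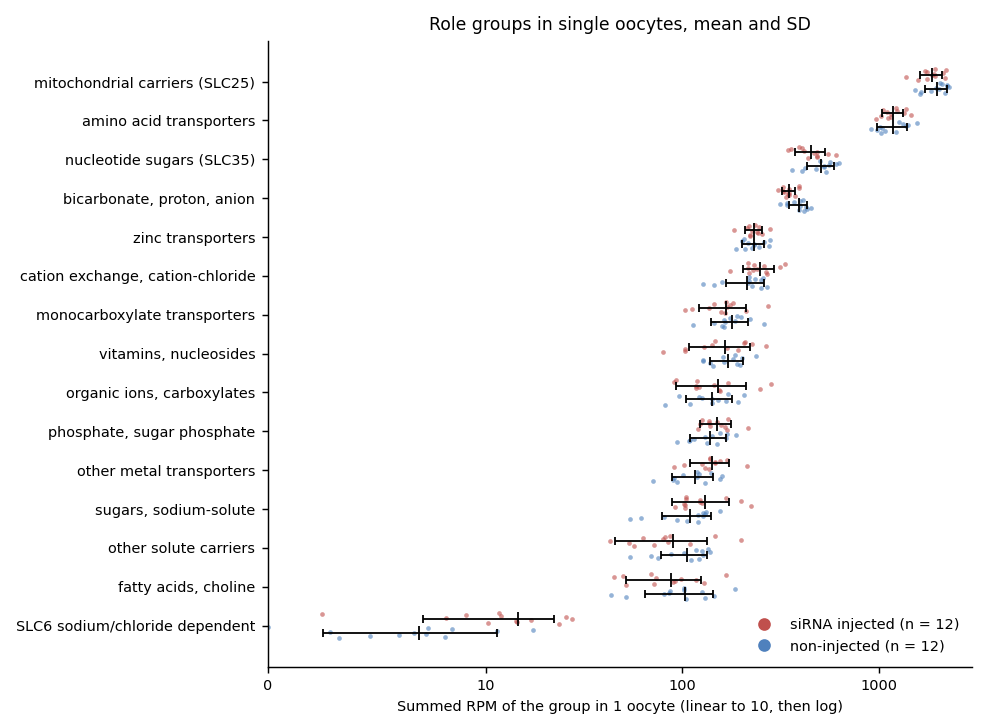
Summed RPM of the genes of each role group in each oocyte (horizontal axis, linear to 10 RPM and logarithmic above), with siRNA injected oocytes in red above non-injected oocytes in blue, and the mean and SD of each group of 12 in black. The groups overlap in every row, among them the mitochondrial carriers at 1860 ± 244 RPM in injected, against 1976 ± 259 RPM in non-injected oocytes.

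Count tests on the recovered UMIs were run as alternatives. DESeq2, the tool the study used, gave an adjusted p to 27 of the 90 genes and to 3317 rows, the others having too few counts for its filter. It called 2 genes lower in injected oocytes, SLC25A31 (log2 fold change -0.58, adjusted p = 0.0146) and SLC35A3 (-0.54, adjusted p = 0.0301), where 3.50% of its rows (116) were called and 2.26% were called lower. On every row above 0, a setting chosen after seeing the data, it called the same 2 genes and 3.53% of rows. In that setting 43 rows were called higher and 76 lower in injected oocytes. The study reported the same counts of higher and lower transcripts. Both genes are also named by the study, in its supplementary list of differentially expressed genes. With each oocyte left out in turn, DESeq2 called SLC25A31 in 24 of 24 fits (adjusted p 0.00425 to 0.0370) and SLC35A3 in 14 of 24 (0.0277 to 0.0906). The call of SLC35A3 was lost without injected oocyte 1, 6, 9, 10 or 11 and without non-injected oocyte 1, 2, 9, 10 or 11. SLC25A39 was called in 2 of the 24 fits, without injected oocyte 11 and without non-injected oocyte 5. The quasi-likelihood test of edgeR called 0 of 7256 rows (841 at an unadjusted p under 0.05, 7 of them among the 90 genes). The calls of SLC25A31 and SLC35A3 thus depended on the tool. That of SLC25A31 also changed within a tool. It was called by edgeR after its own filter on low counts, and by limma with detected genes as a covariate. The direction of both genes stayed the same. Over the 13 alternatives that did not leave out an oocyte, the log2 fold change was -0.59 to -0.47 for SLC25A31 and -0.55 to -0.41 for SLC35A3.

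**Figure D4:**
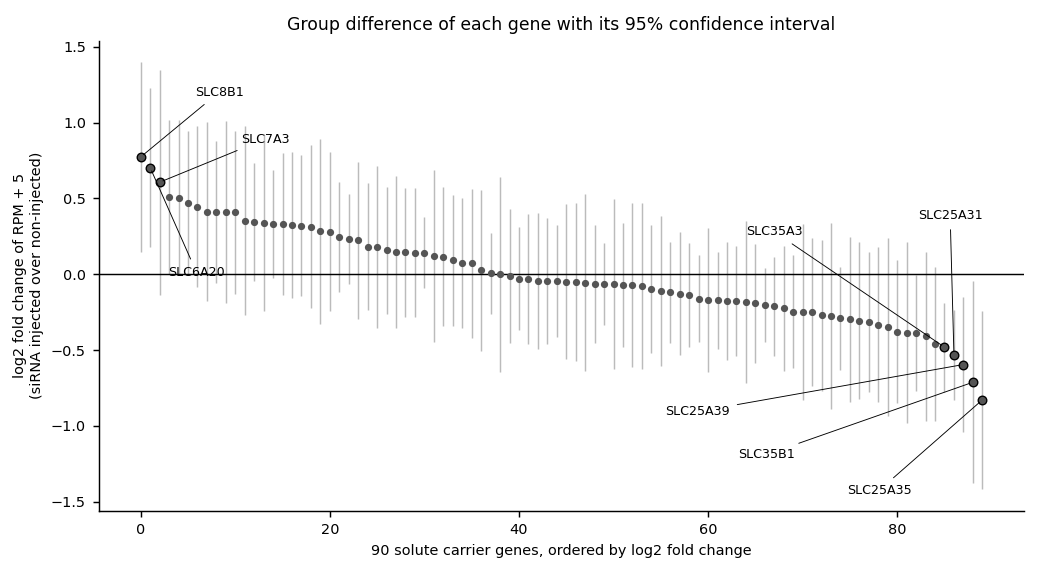
Log2 fold change of RPM + 5, siRNA injected over non-injected, for each of the 90 genes (points) with its 95% interval (lines), ordered from the highest to the lowest; 8 genes are named. The values run from 0.77 (SLC8B1) to -0.83 (SLC25A35), and most intervals cross 0.

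The genes differed in how evenly they were spread over oocytes of the same group. The coefficient of variation (CV) within groups had a median of 42.8% over the 90 genes, of which counting error alone would give 31.6%, against 39.5% and 28.1% over all 7256 rows. At 30 RPM or more the median was 34.9% for 55 solute carrier genes and 31.7% for 4640 rows. SLC25A44 had the lowest CV of those 55, 14.4%, no more than its counting error of 14.5%. Next were SLC25A22 (18.4%, counting error 8.89%) and SLC3A2 (20.3%, counting error 12.8%). Beyond counting error SLC25A22 kept a CV of 16.1% and SLC3A2 15.7%, where the median of the 55 was 22.6%. By that measure some less abundant genes were more even, among them SLC16A1 (11.8%) and SLC35A3 (0%). The highest CVs were those of SLC7A3 (69.9%, counting error 24.2%), SLC18A2 (69.9%, counting error 27.7%) and SLC10A4 (61.6%, counting error 29.5%). For SLC18A2 the levels were 15.6 to 153 RPM (median 30.1) in siRNA injected oocytes and 12.0 to 87.3 RPM (median 48.8) in non-injected oocytes, and for SLC10A4 15.4 to 134 RPM (median 35.7) in siRNA injected oocytes and 20.3 to 54.1 RPM (median 39.6) in non-injected oocytes, so in both the highest value was that of an injected oocyte. Of genes over 100 RPM, SLC25A17 had the highest CV (57.6%).

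**Figure D5:**
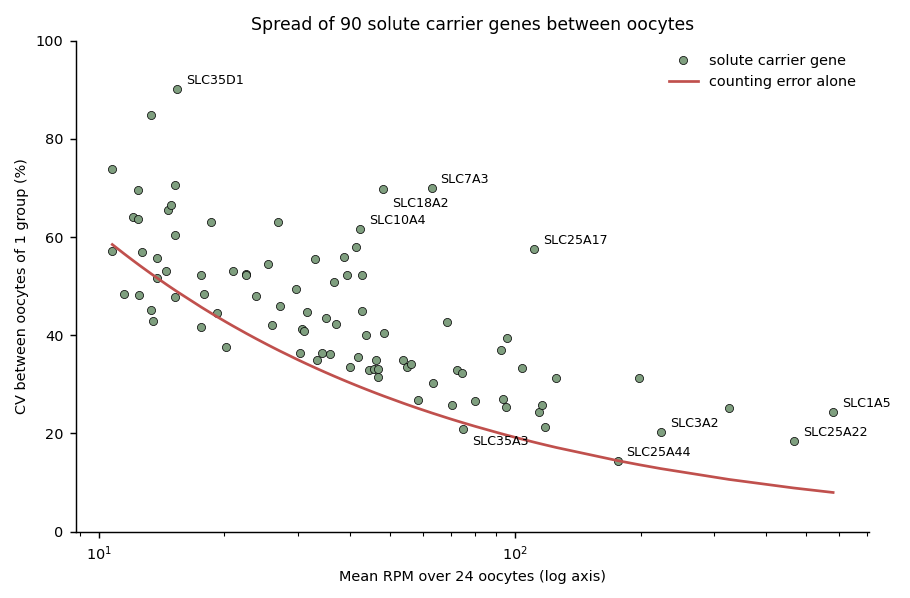
CV between oocytes of the same group in percent (vertical axis) against mean RPM over 24 oocytes (log axis) for each of the 90 genes, with the CV that counting error alone gives as a red line. SLC25A44 and SLC35A3 lie on or under the line, and SLC25A17 (57.6%), SLC7A3 and SLC18A2 lie far above it.

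Some of this spread was shared between genes. Over the 55 genes of at least 30 RPM, log2 levels centred within groups gave 1485 pairs with a median Pearson's r of 0.07 across 24 oocytes. The highest, picked as extremes, were SLC25A17 with SLC25A39 (0.74), with SLC48A1 (0.70), with SLC7A7 (0.70) and with SLC5A12 (0.67), and SLC25A5 with SLC25A20 (0.70) and with SLC25A4 (0.70). The ADP/ATP carriers SLC25A31 and SLC25A5 had an r of 0.62. The heavy chain SLC3A2 had an r of -0.38 with its light chain SLC7A6 and of -0.19 with SLC7A7. The points of each pair share a library and its depth. Levels of some genes went with the number of genes detected in an oocyte. The 6 highest r were those of SLC8B1 (0.73), SLC7A3 (0.66), SLC35B1 (0.63), SLC25A17 (0.61), SLC25A26 (0.60) and SLC25A31 (0.55), and the lowest were -0.54 for SLC9A3R1 and SLC24A1, where the median over the 90 genes was 0.15. With log2 UMIs r was 0.68 for SLC8B1, 0.67 for SLC7A3, 0.43 for SLC35B1, 0.29 for SLC25A17, 0.38 for SLC25A26 and 0.57 for SLC25A31. The part of depth in these correlations was not tested. With the number of detected genes as a covariate, limma called 1 of the 90 genes, SLC25A31 lower in injected oocytes (log2 fold change -0.56, adjusted p = 0.0439), and 46 of 7256 rows (0.634%).

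Transport genes, most of them outside the SLC symbols, were taken from 5 lists. None of their tested members was called by limma or DESeq2, which called 0.221% and 3.50% of the rows they adjusted. Over all 7256 rows 12.4% had an unadjusted p under 0.05 by limma and 53.1% were positive. The counts below stand beside these shares and were not tested. Of genes in SLC families under other symbols, 14 of 34 rows were tested (7 positive, median log2 fold change 0.03), the highest being the sideroflexin SFXN4 (301 RPM in injected, 314 RPM in non-injected oocytes) and the pyruvate carrier subunit MPC1 (168 RPM in injected, 171 RPM in non-injected oocytes). The smallest p in that list belonged to the phosphate exporter XPR1 (limma log2 fold change 0.49 ± 0.28 SE, adjusted p = 0.493) and to MFSD5 (limma log2 fold change 0.29 ± 0.26 SE, adjusted p = 0.710). Of partner and anchor proteins, 8 of 16 rows were tested (3 positive, median -0.06). The highest after SLC3A2 was the kinase WNK1, which controls SLC12 cotransporters (108 RPM in injected, 107 RPM in non-injected oocytes), and the smallest p belonged to the syntaxin STX1A (limma log2 fold change -0.51 ± 0.21 SE, adjusted p = 0.290), followed by NPTN (limma log2 fold change -0.27 ± 0.23 SE, adjusted p = 0.682). Of ATPase pumps, which set the gradients that drive many carriers, 21 of 28 rows were tested (10 positive, median -0.01, 3 at an unadjusted p under 0.05). The calcium pump of the endoplasmic reticulum ATP2A2 (629.8 RPM in injected, 739 RPM in non-injected oocytes) and the proton pump subunit ATP6V1B2 (330.3 RPM in injected, 351 RPM in non-injected oocytes) were the highest. The calcium pump of the plasma membrane ATP2B1 (limma log2 fold change -0.46 ± 0.16 SE, adjusted p = 0.195) and the beta subunit of the sodium pump ATP1B1 (limma log2 fold change 0.43 ± 0.17 SE, adjusted p = 0.279) had the smallest p. Of mitochondrial channels and import proteins, 14 of 21 rows were tested (7 positive, median -0.02, 2 at an unadjusted p under 0.05). The highest were TIMM44 (434 RPM in injected, 400.4 RPM in non-injected oocytes), a subunit of the import motor, and VDAC1 (247 RPM in injected, 306 RPM in non-injected oocytes), the channel of the outer membrane. VDAC1 (limma log2 fold change -0.32 ± 0.11 SE, adjusted p = 0.202) and DNAJC19 (limma log2 fold change 0.69 ± 0.29 SE, adjusted p = 0.307) had the smallest p. Of ABC transporters, 12 of 24 rows were tested (8 positive, median 0.04, 3 at an unadjusted p under 0.05). The highest were ABCF2 (504.3 RPM in injected, 491 RPM in non-injected oocytes) and ABCF1 (190.4 RPM in injected, 148 RPM in non-injected oocytes), which act in translation and carry no solute, and the smallest p belonged to ABCF1 (limma log2 fold change 0.35 ± 0.16 SE, adjusted p = 0.351) and the ribosome recycling factor ABCE1 (limma log2 fold change -0.46 ± 0.21 SE, adjusted p = 0.359).

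Below the minimum, 174 SLC rows were above 0 in at least 1 oocyte and 7 were at 0 in all 24. A count of 0 among 6767980 UMIs allows a mean of up to 0.443 RPM (3 counts, counting error only). The 11 families without a gene at 10 RPM were SLC13, SLC19, SLC23, SLC27, SLC33, SLC34, SLC36, SLC46, SLC47, SLC50 and SLC52. The highest of their genes were SLC19A3, a thiamine transporter (9.99 RPM), SLC46A1, a folate transporter (7.14 RPM), and SLC27A6, of the fatty acid transport proteins (6.15 RPM). A minimum of 5 RPM would have taken in 117 genes and one of 20 RPM 65.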

How the data were processed

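CEL-seq2 libraries of 24 bovine oocytes (12 siRNA injected, 12 non-injected) were used. The authors aligned reads to cDNA sequences, collapsed those sharing gene and UMI, and deposited the result as RPM, 17071 rows by 24 columns, each column matching a sample title. The submitters' processing notes name the build UMD 3.1, and the aligner and the use of strand in counting are not given in the sources used here. UMI counts were recovered from the deposited RPM by inverting a correction for UMI saturation, which the sources used here do not state. Its form and capacity (4048) were inferred from the values, as the capacity that made most values whole, and 100% came out whole within 0.001.

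Rows averaging 10 RPM or more were tested with limma 3.58.1 (eBayes with trend, Benjamini-Hochberg adjustment) in R 4.3.3 on log2(RPM + 5), without a block. Calls required a fold change over 1.2 besides an adjusted p under 0.05. DESeq2 1.42.0, which the authors used for their comparison, and edgeR 4.0.16 ran on the recovered counts as alternatives and called 116 and 0 genes. Values were summarised with Python 3.11.15 and pandas 2.3.3. Of the fits, only that of limma was tested on simulated data, with changes put into rows drawn from all those tested. It recovered 15 of 64 rows changed 1.5-fold, 38 of 64 changed 2-fold and 56 of 60 changed 3-fold. It also called 5 unchanged rows. Many differences of 2-fold or less would thus be missed. Members and gene lists were chosen with earlier results of these data known. Genes named are the 10 highest, the 12 with the smallest p, the ADP/ATP carriers, those the study names, the 2 highest of each role group, the 3 most and least variable at 30 RPM or more, the 3 on either side of the minimum, and in each list the 2 highest and the 2 with the smallest p. Other members are named for their role, with their values known. Other pseudocounts, filters, scalings, a replicate block, a covariate for detected genes, a robust fit and leaving out each oocyte were tried. The PIWIL3 siRNA group of the study is not analysed here. The values of 1 member are not reported here.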

Additional observations from a re-analysis of the deposited data

How the results depend on the processing

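Of the 90 solute carrier genes, limma called 0 with a pseudocount of 1 or 20 RPM, no filter, a minimum of 30 RPM, TMM or size factor scaling, a robust fit and each oocyte left out in turn (0 to 0), and edgeR 0 with each oocyte left out. The covariate for detected genes gave 1 (SLC25A31), DESeq2 2, and, chosen after seeing the data, edgeR after its own filter on low counts (filterByExpr) 1 (SLC25A31; 51 of 4262 rows) and DESeq2 on every row above 0 2 (119 of 3373 rows, 3.53%). DESeq2 with each oocyte left out, also chosen after seeing the data, called 1 to 3.

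Over all rows, 16 were called by limma (6 higher, 10 lower). A pseudocount of 1 RPM gave 9 (2 higher, 7 lower), no filter 0 (1332 at an unadjusted p under 0.05), a minimum of 30 RPM 52, the covariate 46, a robust fit 34, edgeR 0 (841 at an unadjusted p under 0.05), edgeR with filterByExpr 51, DESeq2 116 and DESeq2 on every row above 0 119. TMM scaling gave 12 (2 higher, 10 lower), and each oocyte left out 0 to 37. The causes were not tested.

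The groups share replicate numbers, but no source used here ties a number to an animal or day. Of 12 same-numbered pairs 2 correlated above 0.1, and 1 injected oocyte correlated best with its own number. A fit with the replicate block called 0 solute carrier genes and 11 of all rows.

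Among the named genes, signs turned for those with a difference near 0. The log2 fold change was -0.0289 for SLC3A2 under TMM, 0.00692 for SLC10A3 under edgeR with filterByExpr, and for SLC39A1 0.00427 at a pseudocount of 20 RPM, 0.0262 with edgeR, 0.0380 with DESeq2, 0.0536 with edgeR and filterByExpr and 0.0371 with DESeq2 on every row above 0. Leaving out each oocyte gave -0.129 to 0.00145 for SLC1A5, -0.037 to 0.0837 for SLC3A2, -0.0185 to 0.163 for SLC25A4, -0.0821 to 0.0983 for SLC39A1, -0.14 to 0.0277 for SLC12A2, -0.105 to 0.0281 for SLC10A3, -0.0785 to 0.173 for SLC10A4, -0.118 to 0.0869 for SLC37A3 and -0.198 to 0.0356 for SLC48A1.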
